A study of Homo sapiens with 4 samples.

Results

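The tissue factor, thrombospondin and plasminogen activator system was followed through 9 of the 60308 genes counted. These were tissue factor and its inhibitor (F3, TFPI), the thrombin and trypsin receptors F2R and F2RL1, the plasminogen activators PLAT and PLAU with the urokinase receptor PLAUR, the protease inhibitor SERPINE2, and thrombospondin 1 (THBS1). They were matched by gene symbol, and the set was chosen on earlier results of the same contrast, the fold between the libraries in these read counts, so their differences are given as descriptions. RNA-seq was done in VCaP, an established line of human prostate cancer cells with the TMPRSS2-ERG fusion. Cells in medium with 10% serum received either a control siRNA with no target (siNTC) or siRNA to ZBTB7A (siZBTB7A), a gene for a zinc finger transcriptional repressor, and the study asked which genes ZBTB7A regulates. Each of the 2 groups had 2 count tables, numbered 1 and 2, and nothing in the labels says that they came from separate cultures. The labels give neither the time after transfection nor the number of siRNAs used.

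Tissue factor is the membrane receptor that binds factor VIIa and starts the extrinsic pathway of blood clotting, and tissue factor pathway inhibitor blocks that complex. The proteases formed can cut protease-activated receptors, G protein-coupled receptors that carry their own ligand in the amino terminus. Urokinase and tissue plasminogen activator convert plasminogen to plasmin, which digests fibrin and matrix, and carcinoma cells are known to use both systems at their surface. Thrombospondin 1 is a secreted matricellular glycoprotein that binds cell surface receptors and matrix proteins and activates latent TGF-beta.

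The sequences upstream of 4 gene starts are shown as examples. They belong to F3 and THBS1, which were higher in the siZBTB7A library, F2RL1, which was abundant at an even level, and PLAU, which had no reads. Genes with a fold below 1, such as PLAT and PLAUR, are not among them. Each is the 250 bases before the gene start in RefSeq (GRCh38.p14), 5′ to 3′ on the strand of the gene. Capitals mark matches on either strand to 5 strings: TGANTCA (AP-1), GGGCGG (Sp1 and KLF factors), CCAAT (the box bound by NF-Y), TATAAA (the TATA box), and GACCCC, which resembles the C-rich sites reported for ZBTB7A. The regions are chr1:94541760-94542009 (F3, minus strand), chr15:39580829-39581078 (THBS1, plus strand), chr5:76818780-76819029 (F2RL1, plus strand) and chr10:73910882-73911131 (PLAU, plus strand, the second of 2 listed starts).
F3: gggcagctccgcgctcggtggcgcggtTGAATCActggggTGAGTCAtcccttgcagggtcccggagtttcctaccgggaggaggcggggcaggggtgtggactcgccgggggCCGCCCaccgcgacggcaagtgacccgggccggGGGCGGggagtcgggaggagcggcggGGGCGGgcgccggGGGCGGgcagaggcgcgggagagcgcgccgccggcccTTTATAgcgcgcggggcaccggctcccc
THBS1: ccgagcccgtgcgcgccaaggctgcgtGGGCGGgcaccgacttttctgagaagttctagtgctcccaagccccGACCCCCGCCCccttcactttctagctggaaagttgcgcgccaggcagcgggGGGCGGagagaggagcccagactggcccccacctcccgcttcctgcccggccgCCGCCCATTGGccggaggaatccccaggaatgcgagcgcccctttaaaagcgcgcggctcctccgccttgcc
F2RL1: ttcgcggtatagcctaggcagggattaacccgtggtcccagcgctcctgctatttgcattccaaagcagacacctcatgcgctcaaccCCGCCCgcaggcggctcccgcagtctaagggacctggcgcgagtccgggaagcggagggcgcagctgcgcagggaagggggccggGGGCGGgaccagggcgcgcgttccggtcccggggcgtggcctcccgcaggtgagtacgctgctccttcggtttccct
PLAU: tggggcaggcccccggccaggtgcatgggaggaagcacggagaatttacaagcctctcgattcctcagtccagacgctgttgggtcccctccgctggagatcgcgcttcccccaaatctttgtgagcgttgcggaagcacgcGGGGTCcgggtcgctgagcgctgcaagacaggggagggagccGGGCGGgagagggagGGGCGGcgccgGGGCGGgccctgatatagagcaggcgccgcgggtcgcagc

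The F3 region held AP-1 matches 223 and 210 bases before the start, 4 GGGCGG matches and a TATAAA match on the other strand 28 bases before the start. The THBS1 region held 4 GGGCGG matches, a CCAAT match 66 bases before the start and a GACCCC match 177 bases before it. That last match shares 1 base with a GGGCGG match on the other strand. The F2RL1 region held 2 GGGCGG matches, and the PLAU region held 3 of them with a GACCCC match 108 bases before the start. Across 35116 gene starts, the same window held TGANTCA in 6.57%, GGGCGG in 42.6%, CCAAT in 32.0%, TATAAA in 10.7% and GACCCC in 16.4%. Starts of 7 of the 9 genes were kept, 9 starts in all. Starts on the chromosome that carries PLAT were removed before this count, so PLAT is not covered. No start was found for F2R. Among the kept starts not printed, PLAUR held an AP-1 match 186 bases before the start, TFPI held none of the 5 strings, and the first SERPINE2 start held 7 CCAAT matches. The first PLAU start held a CCAAT match 182 bases before the start and no GGGCGG or GACCCC match, so the matches printed for PLAU belong to its second start only. Over the 9 kept starts, the base composition ranged from 38.4% GC upstream of TFPI to 78.0% upstream of F3. The median over all 35116 gene starts was 58.0%. These matches describe the letters in the window and are not evidence of binding.

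**Figure D1:**
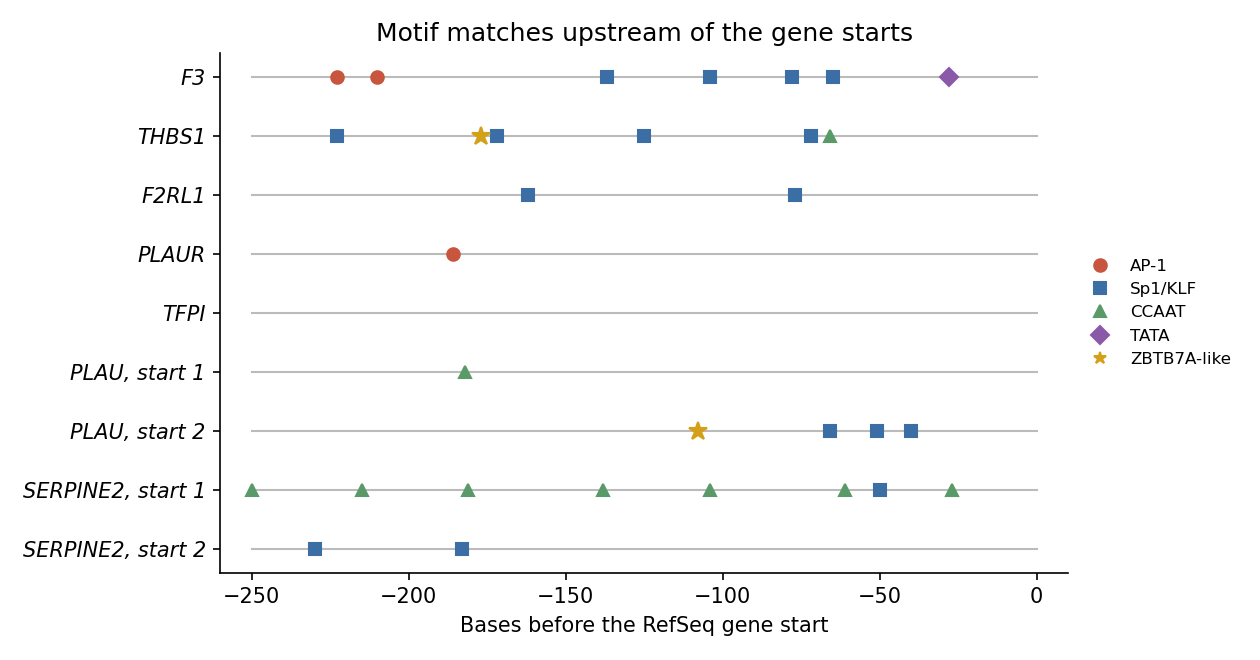
Position of each motif match (symbols) in the 250 bases before the RefSeq gene start (horizontal axis, bases) for 9 starts of 7 genes. F3 is the start with 2 AP-1 matches, at 223 and 210 bases before the start, and with the TATA match, while TFPI has no symbol.

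The tables held between 5556061 and 5927656 reads in genes on the main strand. Tables of the same group differed by no more than read sampling, with a chi-square per degree of freedom of 0.993 for siNTC (12762 genes compared) and 0.995 for siZBTB7A (12645 genes), against 3.50 to 3.64 between groups. The 2 tables of a group were therefore counted as 1 library, so there is no replicate check, and every interval below is an exact 95% interval for counting error only. ZBTB7A itself had 90 and 115 reads with siNTC, against 70 and 74 with siZBTB7A, a fold of 0.743 (0.596 to 0.924) that did not pass the test described next. A gene is called higher or lower where it passed edgeR's quasi-likelihood test over all 12848 genes tested, at a Benjamini-Hochberg adjusted p of 0.05. That test compares these 2 libraries and not the 2 conditions. The luminal prostate markers were all present, led by KLK2 at 3931 and 4023 CPM (reads per 1000000 gene reads, after scaling), and 4 of the 10 (FOLH1, HOXB13, KLK2, SLC45A3) were called higher, beside 2.25% of all genes tested. Reads that overlapped no annotated exon on the main strand, which can include intron reads, made up 20.6% of all reads in each siNTC table. With siZBTB7A they made up 23.1% and 23.2%. Reads mapping to several places made up 24.5% and 24.4% against 22.3% and 22.2%. The part of these differences in the folds was not tested. In bulk RNA, fewer cells expressing a gene and less RNA per cell cannot be told apart.

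Of the 9 genes, 6 had enough reads to be tested. F3 and THBS1 were called higher, 4 were not called and 0 were called lower. Of all genes tested 4.97% were called, 2.25% higher and 2.72% lower, but the 9 genes were chosen with this contrast known, so nothing is read from their count. The 3 untested genes, PLAU, PLAUR and SERPINE2, had 0, 29 and 6 reads in all 4 tables together.

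F3 (ENSG00000117525.13) encodes tissue factor. It had 39 and 40 reads with siNTC, against 62 and 65 with siZBTB7A, which came to 6.74, 6.69, 11.3 and 11.5 CPM. Both siZBTB7A tables lay well above both siNTC tables, and the tables within each group nearly coincided. The fold of the summed tables was 1.70 (1.27 to 2.28). When any 1 of the 4 tables was left out, which lowers both the depth and the number of tables in the fit, F3 no longer passed the test. Its fold stayed between 1.69 and 1.71 over the alternatives run.

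TFPI (ENSG00000003436.14), whose product inhibits the complex of tissue factor and factor VIIa, was scarce. Its 32 and 22 reads in siNTC and 27 and 16 in siZBTB7A gave a CPM of 5.53, 3.68, 4.94 and 2.83. The groups overlapped, and the tables of 1 group differed more than the groups did. The fold was 0.843 (0.551 to 1.28), an interval that includes 1.

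**Figure D2:**
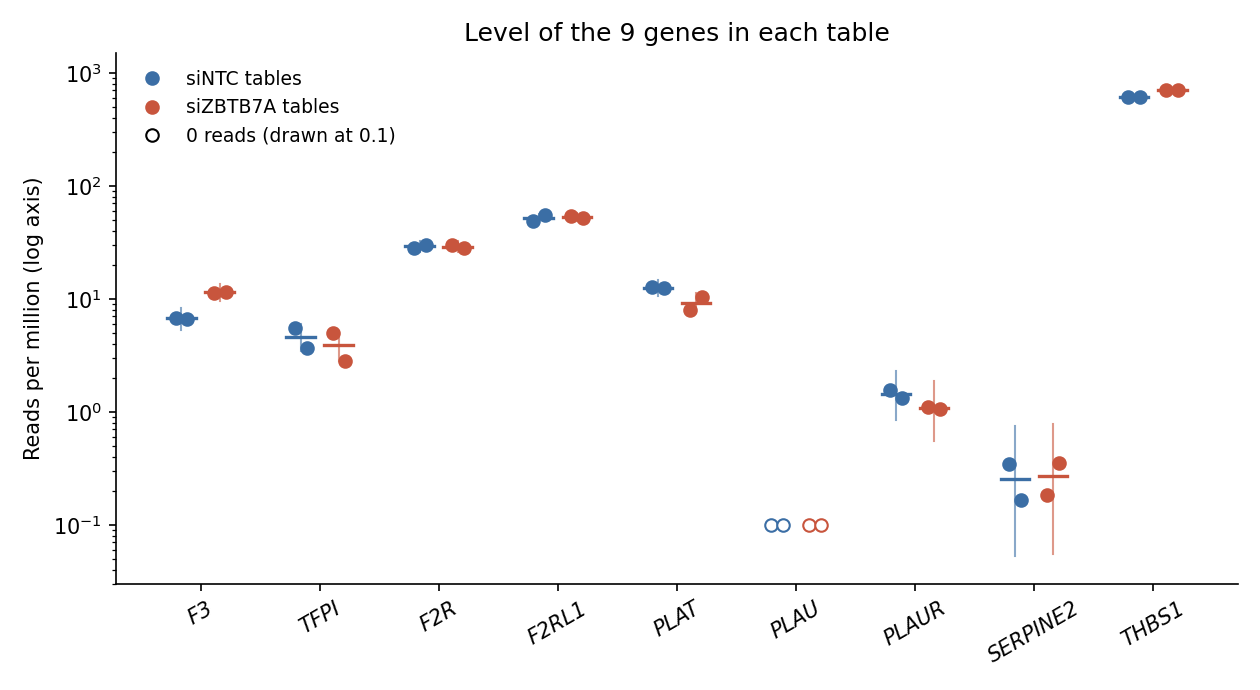
CPM (vertical log axis) of the 9 genes in each of the 4 tables (points; siNTC blue, siZBTB7A red), with the level of the summed tables (bar) and its exact 95% counting interval (line). F3 lies at 6.74 and 6.69 in siNTC and at 11.3 and 11.5 in siZBTB7A, THBS1 is far above the others, and PLAU has 0 reads in every table.

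The protease-activated receptor genes F2R and F2RL1 had folds near 1. F2R (ENSG00000181104.6), which encodes the thrombin receptor PAR1, had a CPM of 28.3 and 30.1 with siNTC, against 29.8 and 28.0 with siZBTB7A. Its groups overlapped, with a fold of 0.987 (0.846 to 1.15) from 344 and 321 reads. F2RL1 (ENSG00000164251.4), which encodes PAR2, a receptor cut by trypsin-like proteases and by the tissue factor complex, had a CPM of 48.9 and 55.7 in siNTC and 53.8 and 51.5 in siZBTB7A. Both siZBTB7A values lay between the siNTC values. The fold was 1.005 (0.896 to 1.13) from 616 and 585 reads. The related receptor genes F2RL2 and F2RL3 (PAR3 and PAR4) had 1 and 2 reads in all tables together.

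Of the plasminogen activators, PLAT was present and PLAU was not detected. PLAT (ENSG00000104368.17), which encodes tissue plasminogen activator, had 73 and 75 reads in siNTC and 44 and 59 in siZBTB7A, or 12.6, 12.5, 8.05 and 10.4 CPM. Both siZBTB7A tables lay below both siNTC tables. The fold was 0.736 (0.567 to 0.954) and the gene did not pass the test. Without the first or the second siZBTB7A table the fold was 0.830 or 0.640.

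PLAU (ENSG00000122861.15), which encodes urokinase, had 0 reads in each of the 4 tables, on either strand. A count of 0 allows up to 3 reads, or 0.131 CPM over all tables. In GENCODE 29 no other gene shares its exons on the same strand, while C10orf55 covers 31.1% of them on the opposite strand. PLAUR (ENSG00000011422.11), which encodes the urokinase receptor, had 9 and 8 reads in siNTC and 6 and 6 in siZBTB7A, a fold of 0.747 (0.326 to 1.66) that includes 1 and was not tested.

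Apart from TFPI, the protease inhibitor gene of the set was barely detected. SERPINE2 (ENSG00000135919.12), which encodes protease nexin-1, an inhibitor of thrombin and urokinase, had 2, 1, 1 and 2 reads in the tables siNTC 1, siNTC 2, siZBTB7A 1 and siZBTB7A 2. The groups overlapped, and no fold is given at this depth.

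THBS1 (ENSG00000137801.10) was the most abundant of the 9 and was called higher. It had 3540 and 3623 reads in siNTC and 3847 and 3963 in siZBTB7A, or 612, 606, 704 and 701 CPM. Both siZBTB7A tables stood above both siNTC tables, with little spread inside a group. The fold was 1.15 (1.12 to 1.19), smaller than that of F3 but far more precisely counted, and it was called higher under all 13 alternatives run. Of the paralogs, THBS3 had 104 and 88 reads, a fold of 0.895 (0.666 to 1.20), THBS2 had 9 and 10 reads and THBS4 had 1 and 0.

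**Figure D3:**
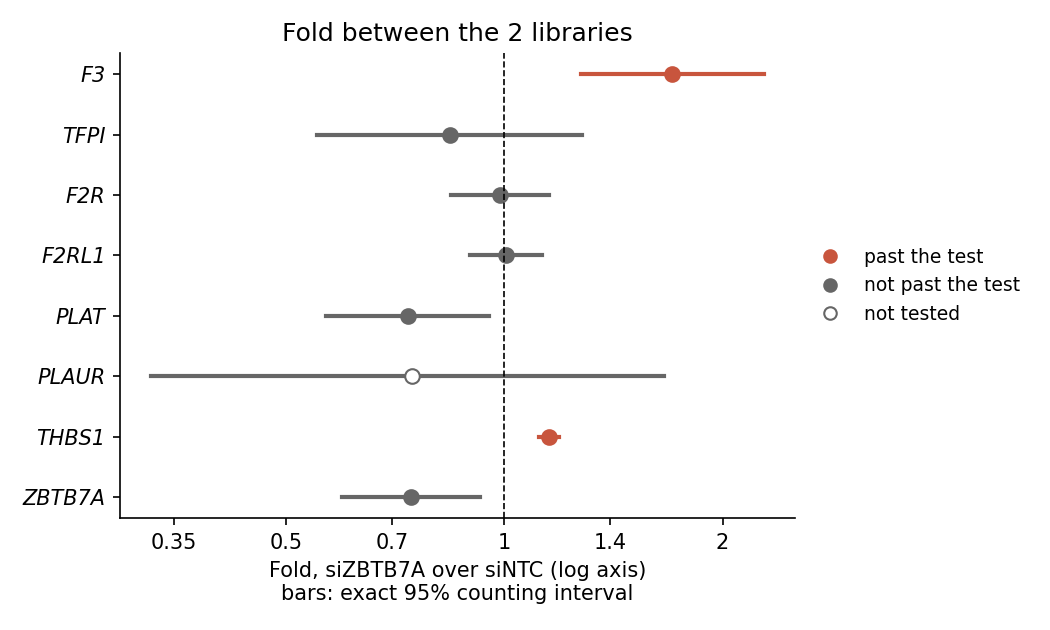
Fold of siZBTB7A over siNTC from the summed tables (horizontal log axis) with exact 95% counting intervals, for 7 of the genes and ZBTB7A; colour marks those past the test and the open point a gene not tested. F3 at 1.70 and THBS1 at 1.15 lie to the right of 1, F2R and F2RL1 lie at 1, and PLAT and ZBTB7A lie at 0.736 and 0.743.

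Both tables of a group lay beyond both tables of the other group at F3 and THBS1 (above) and at PLAT and PLAUR (below). Of these, F3, THBS1 and PLAT were among the 6 tested. Among all genes tested, 23.5% lay above and 23.4% below in this way, and nothing is read from the count in the set.

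Per length the order of the genes was steep. Over all 4 tables, THBS1 stood at 71.4 (70.3 to 72.6) RPKM, the CPM divided by kilobases of annotated exon. This lay above 97.1% of the 11633 protein-coding genes tested. F2RL1 followed at 17.7 (16.8 to 18.8), above 84.0% of them, and F2R at 7.15 (6.61 to 7.71), above 61.1%. F3 came next at 3.13 (2.72 to 3.59), above 36.0%, then PLAT at 1.66 (1.46 to 1.88), above 20.9%. TFPI at 0.362 (0.293 to 0.441) and PLAUR at 0.284 (0.190 to 0.408) did not differ beyond counting error and changed places when the longest transcript was used as the length. SERPINE2 stood at 0.0295 (0.0108 to 0.0642) and PLAU at 0, and these neighbours could not be separated either. All other neighbours in the order had intervals that did not overlap.

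**Figure D4:**
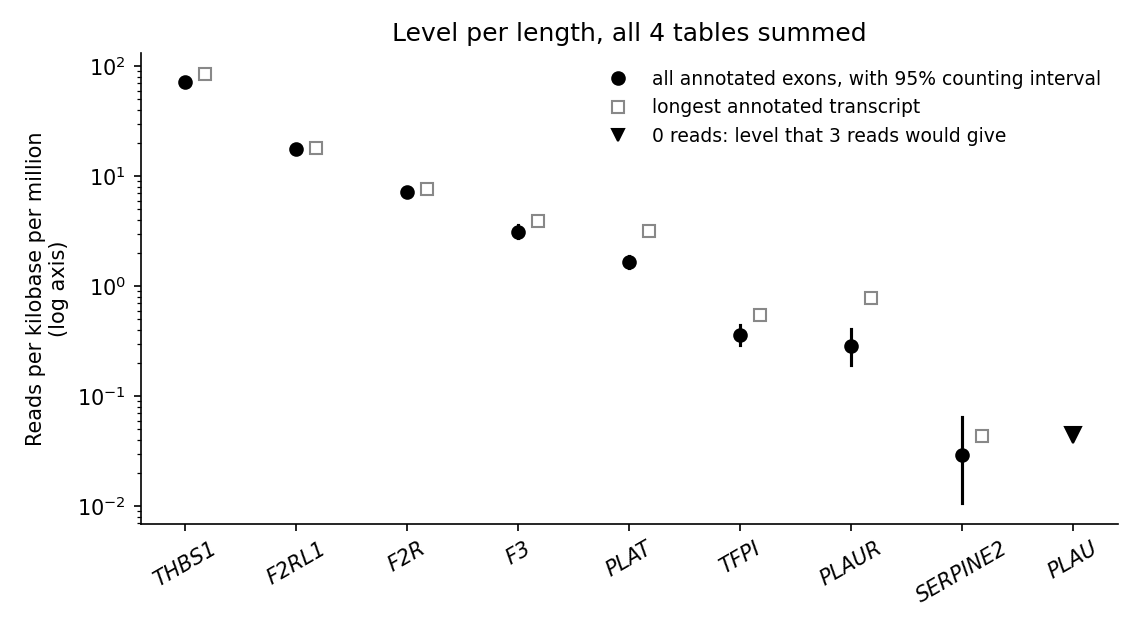
Level per length over all 4 tables (vertical log axis, RPKM), by all annotated exons (filled, with the 95% counting interval) and by the longest annotated transcript (open squares); the triangle for PLAU marks the level that 3 reads would give. THBS1 at 71.4 lies far above PLAUR at 0.284, and TFPI and PLAUR are the neighbours whose order depends on the length used.

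Reads from the opposite strand were not used in the choice of the genes. Over the 9 genes they made up 15 of 8439 reads in siNTC (0.178%, 0.0995% to 0.293%) and 17 of 9021 in siZBTB7A (0.188%, 0.110% to 0.302%), with overlapping intervals. Over all genes the share was 3.86% and 3.77%. Most reads of the set come from THBS1, so its share weighs most in that sum. F3 had 0 opposite-strand reads of 206, which allows a share of up to 1.46%. THBS1, whose exons are overlapped over 7.58% of their length by FSIP1 and AC037198.2 on the other strand, had 8 (0.112%) and 13 (0.166%). PLAT had 6 and 2, or 3.90% (1.44% to 8.29%) in siNTC and 1.90% (0.232% to 6.71%) in siZBTB7A, intervals that include the shares over all genes.

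The wider clotting system was represented by few genes. Of 16 coagulation factor genes, 3 were tested, F5, F8 and F12, and 0 were called in edgeR's quasi-likelihood test. F12, which encodes the contact factor XII, had 56.3 and 57.6 CPM, a fold of 1.02 (0.916 to 1.14), and F5, which encodes the cofactor V, had 13.9 and 13.7, a fold of 0.987 (0.786 to 1.24). Another 7 of the 16 had 0 reads: F2, F7, F9, F11, FGA, FGB and FGG. F7 encodes the partner of tissue factor, and it is named here after its value was seen. Of 10 anticoagulant genes only PROCR, the endothelial protein C receptor gene, was tested. It had 35.1 and 30.3 CPM, a fold of 0.864 (0.746 to 0.9996), and was not called, while PROS1, which encodes the cofactor protein S, had 11 and 17 reads. All 6 genes of the vitamin K cycle and of factor secretion were tested and 0 were called, with LMAN1, a cargo receptor for factors V and VIII, at 0.969 (0.912 to 1.03) and its partner MCFD2 at 1.04 (0.959 to 1.13).

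Among other genes of the plasminogen system and of receptor signalling, 1 member of each list was called, beside 4.97% of all genes tested. Of 17 tested genes for plasminogen, inhibitors and surface receptors, VLDLR, a lipoprotein receptor gene that also takes up protease-inhibitor complexes, was called lower, from 549 to 401 reads, a fold of 0.773 (0.678 to 0.881). ENO1 and S100A10, whose products can bind plasminogen at the cell surface, stood highest per length and were at 1.01 (0.995 to 1.03) and 1.09 (0.991 to 1.20). PLG, SERPINB2, CPB2 and ITGB3 had 0 reads. Of 20 tested protease-activated receptor and G protein effector genes, ARHGEF12, a guanine nucleotide exchange factor gene downstream of the G12 and G13 proteins, was called lower at 0.885 (0.849 to 0.924). RHOA was at 1.03 (0.981 to 1.08) and the receptor kinase gene GRK2 at 1.06 (1.02 to 1.11), and neither was called. Of 10 tested membrane serine protease and Kunitz inhibitor genes, SPINT1, which encodes an inhibitor of matriptase and hepsin, was called higher at 1.20 (1.08 to 1.34). SPINT2 and TMPRSS2 were not called, at 1.03 (0.984 to 1.08) and 0.995 (0.950 to 1.04).

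Lists connected with THBS1 and with the regulation of F3 held 0 or 1 called genes each, beside 4.97% of all genes tested. Of 11 tested thrombospondin, receptor and matricellular genes, CALR, which encodes calreticulin, was called lower at 0.952 (0.933 to 0.972), and SDC1 was at 0.975 (0.934 to 1.02). In that list 1 of 11 folds lay above 1, with a median log2 fold of -0.07, beside 50.2% of all tested genes and a median of 0.00084. In the list of protease-activated receptor and G protein effector genes 15 of 20 folds lay above 1, with a median of 0.04, and the AP-1, Sp, Egr and NF-kB list had 6 of 11 above 1 and a median of 0.12. Of 13 tested TGF-beta genes, LTBP3, which encodes a latent TGF-beta binding protein, was called higher at 1.21 (1.09 to 1.35), while PMEPA1 and SMAD4 were at 1.02 (0.974 to 1.07) and 0.931 (0.858 to 1.01). Of 13 tested genes of the YAP and TAZ target signature 0 were called, with FJX1 at 1.12 (0.915 to 1.37) and IGFBP3 at 1.23 (1.05 to 1.43). CRIM1 of that list, named after its value was seen, had a fold of 1.32 (1.10 to 1.57) and was called higher in 5 of 9 alternatives, the replicate block among them. Of 11 tested AP-1, Sp, Egr and NF-kB factor genes, JUND was called higher at 1.15 (1.05 to 1.25) and SP1 was at 0.932 (0.864 to 1.005).

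**Figure D5:**
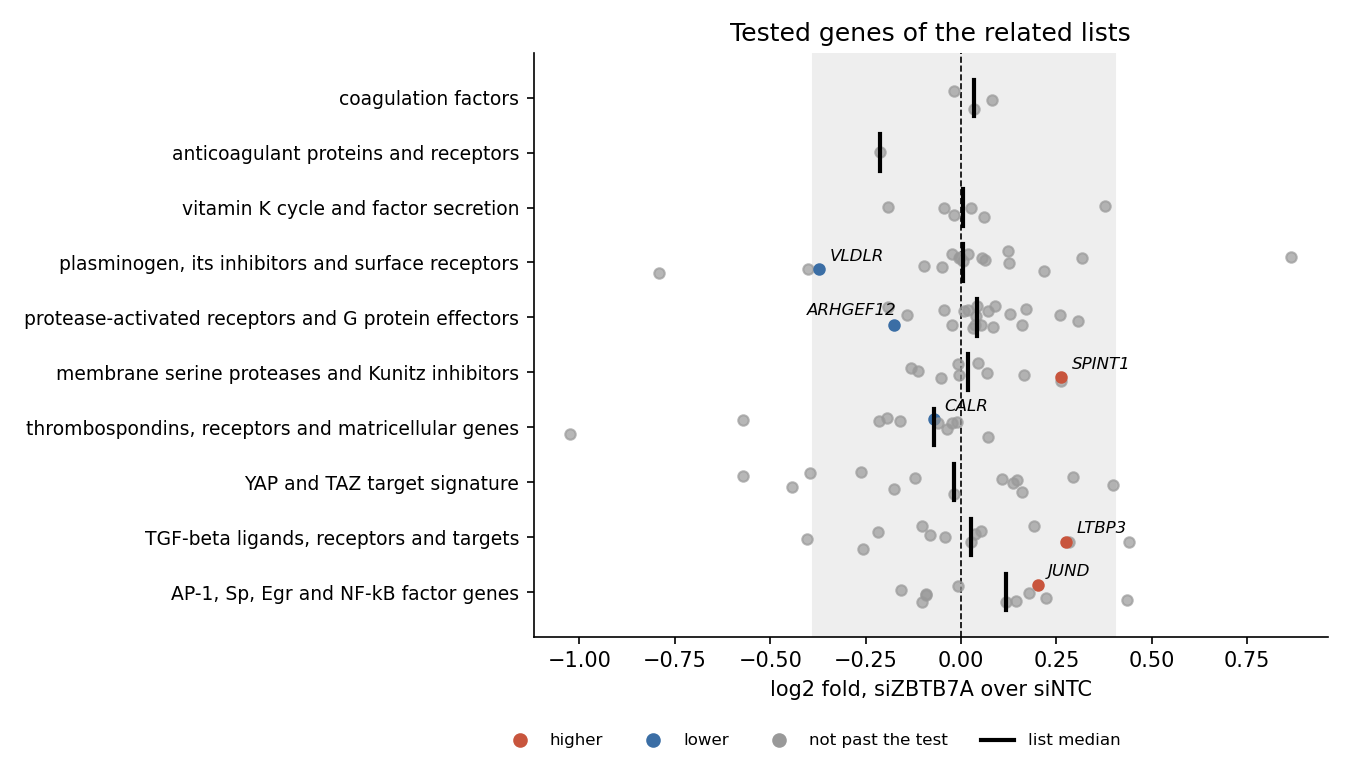
log2 fold of siZBTB7A over siNTC (horizontal axis) for the tested genes of 10 related lists, with called genes coloured and named, list medians as bars, the median of all tested genes as a dashed line and the range from their 5th to their 95th percentile shaded. The 6 called genes VLDLR, ARHGEF12, CALR, SPINT1, LTBP3 and JUND lie inside the shaded range, and the genes outside it were not called.

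The 10 lists together held 104 tested genes, of which 3 were called higher and 3 lower (5.77%), close to the 4.97% of all genes tested. With a correction for transcript GC content and length, CALR alone was still called, at 0.926, and JUND moved to 1.004. The corrected folds of the others were 0.816 for VLDLR, 0.941 for ARHGEF12, 1.15 for SPINT1 and 1.10 for LTBP3. With DESeq2 in place of edgeR, 1 gene of the lists was called, ARHGEF12. DESeq2 gave no adjusted p for 11707 of the 12848 genes, and a gene without one could not be called. In 6 other alternatives 7 or 8 genes were called, with CRIM1, GNAI3 or both added.

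Markers of other cell types ranged from a few reads, for platelets, endothelium, leukocytes and basal cells, to well-detected levels of the fibroblast marker LUM and the hepatocyte marker ALB. The platelet and megakaryocyte markers summed to between 7 and 15 reads per table, and 4 of 7 (PPBP, GP1BA, GP1BB and GP9) had 0 reads. The endothelial markers summed to between 2 and 7 reads, with CDH5, TIE1, CLDN5 and EMCN at 0 of 7 matched. Leukocyte markers summed to between 9 and 13 reads and basal prostate markers to between 9 and 13, with PTPRC at 1 read and KRT5 at 0. Fibroblast markers summed to 18.8 and 15.9 CPM in siNTC and 13.7 and 15.4 in siZBTB7A, mostly from LUM (4.68 RPKM over all tables, against 3.13 for F3), with COL1A2 and FAP at 0. Hepatocyte markers, led by ALB at 160 and 144 CPM (45.1 RPKM over all tables, against 17.7 for F2RL1), summed to 170 and 167 in siNTC and 157 and 147 in siZBTB7A, with HP at 0. In edgeR's test, 1 fibroblast, 1 leukocyte and 3 hepatocyte markers were tested, and 0 of the basal, platelet and endothelial markers. None of those tested was called, beside 4.97% of all genes tested, and with so few tested nothing is read from this. The part of these cell types in the levels of F3 and THBS1 was not tested.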

How the data were processed

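RNA-seq counts were compared between VCaP cells transfected with siNTC or siZBTB7A. The authors deposited raw read counts per gene in the layout of STAR gene counts, made from column-extracted RNA with a stranded total RNA kit, per the labels' protocols. Per the submitters' processing notes, STAR 2.4.2a was used with hg19 or GRCh37. The authors' gene annotation was not given in the sources used here. This layout leaves out reads that overlap several genes or map to several places. The count on the main strand exceeded that on the other by 24.9 to 25.5 times, and rows that name no gene (50.8% to 51.2% of reads) were left out. Genes were named from GENCODE 29 by Ensembl number (55698 of 60308), and its lengths, from another build, served for the levels per kilobase.

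edgeR 4.0.16 (R 4.3.3) was run with TMM factors, filterByExpr and a robust quasi-likelihood fit on all 4 tables, with group as the only term. CPM values are scaled to TMM-adjusted totals, and folds use the summed tables with exact (Clopper-Pearson) 95% intervals. The fit was also run on simulated data with read sampling as the only noise and 200 changed, well-counted genes. It recovered 82% of those changed 1.5-fold and 99% of those changed 2-fold, and called 2 unchanged genes. Such data hold no variation between cultures, so they cannot show how the test behaves with 1 library per group. Alternatives were limma-voom (limma 3.58.1), DESeq2 1.42.0 and its size factors alone, no mitochondrial genes, unstranded counts, other filters, a GC and length spline, the replicate number as a block and leaving out each table. The 9 genes and the related lists were chosen with earlier results of these data known. Of each list the called genes (at most 4) and the 2 with the highest level per length are named. With 1 library per group, no gene was ranked by likeness of pattern. Of 220 list entries, 219 were matched (PECAM1 was not). Python 3.11.15, scipy 1.17.1 and matplotlib 3.10.9 were used for the rest.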

Additional observations from a re-analysis of the deposited data

How the results depend on the processing

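Over 70 recomputed folds of F3, TFPI, THBS1, PLAT, PLAUR, F2R, F2RL1 and ZBTB7A, 69 stayed within their counting interval. The exception was THBS1 with the GC and length correction, which moved away from 1 to a log2 fold of 0.25 (1.19-fold). F3 was called higher in 8 of 13 alternatives, was not called when any 1 table was left out, and had no adjusted p from DESeq2. TFPI, PLAT, F2R, F2RL1 and ZBTB7A were not called in 12 alternatives and likewise had no adjusted p from DESeq2, and the fold of TFPI ranged from 0.617 to 1.08. By the longest transcript as the length, 2 of the 9 genes, TFPI and PLAUR, changed places. The count of 639 genes called (289 higher, 350 lower) was 367 (186 and 181) with the GC and length correction and 85 (41 and 44) with DESeq2, which gave no adjusted p for 11707 genes; the cause of that difference was not tested. Leaving out a table gave 303 to 373 genes (141 to 165 higher, 162 to 217 lower). In the related lists, 6 called genes became 1 with that correction (CALR) and 1 with DESeq2 (ARHGEF12), 5 with no filter, and 7 or 8 in 6 other alternatives (8 with the replicate block), which added CRIM1, GNAI3 or both. Same-numbered tables share only a number, their deviations correlated at -0.015 over 5461 genes, and the replicate block called 654 genes and changed no call among the 9. Depth allows no fold for PLAU and SERPINE2.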

Other observations

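Further genes of this system are given as values, chosen after their values were seen. HGF, whose product is a plasminogen-like growth factor activated by proteases such as matriptase and hepsin, had 152 and 141 CPM, a fold of 0.925 (0.864 to 0.990), and was not called. Per length it stood at 14.9, against 0.857 for MET, which encodes its receptor, with 67 and 71 reads. Of the thrombospondin 1 receptors, CD47 had 82.1 and 81.5 CPM, a fold of 0.993 (0.906 to 1.09), and CD36 had 1 read in each library. ALB, the albumin gene, had 924 and 957 reads with siNTC, against 818 and 788 with siZBTB7A, while the acute-phase gene HP had 0 and TTR had 58 and 46.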
